A study of Mus musculus with 6 samples.

Results

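The 5 genes described here, Spi1, Bcl11a, Mef2c, Hhex and Lyl1, encode transcription factors that thymocytes bring with them from earlier blood progenitors and switch off when they commit to the T lineage. They were taken by their symbols, matched to Ensembl mouse gene IDs, and all 5 were found among the 47729 genes counted. RNA was sequenced from DN1a/b cells, early thymocytes sorted by flow cytometry from C57BL/6 mice, in 6 libraries, 2 from each of 3 groups. Control mice kept RBPJ throughout, RBPJ uninduced mice lacked it by their labels, and RBPJ 6 days induced mice first lacked it and then had it switched on with doxycycline, by injection (2 mg/ml) and afterwards through the drinking water (1 mg/ml). RBPJ binds DNA and carries the signal of Notch receptors to their target genes. The sources used here do not give the alleles, the promoter that drives the inducible RBPJ, the age of the mice or whether Control and uninduced mice had doxycycline. Where induced libraries are compared, RBPJ and doxycycline therefore cannot be told apart. Whether replicate libraries stem from different mice is also not stated in the labels, and p-values then reflect only how far these libraries differ, which may be technical.

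Early thymic progenitors enter the thymus with a set of regulators inherited from the bone marrow, often called legacy or progenitor factors. These regulators keep other blood fates open until Notch signalling and the T-lineage factors that act with it have shut them down, a step that is complete only after the DN1 stage. PU.1, encoded by Spi1, is the best known of them: it drives myeloid and dendritic genes, and Notch signalling is known to limit what it can do in early thymocytes. BCL11A is a zinc finger factor needed for B-cell and plasmacytoid dendritic cell development, MEF2C a MADS-box factor of lymphoid progenitors, HHEX a homeodomain factor of lymphoid and stem cell programmes, and LYL1 a basic helix-loop-helix factor needed to maintain early thymic progenitors.

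The libraries held 5098927 to 12932928 counts assigned to genes, and 18174 genes were tested, all 5 factors among them. Rbpj, the gene manipulated, stood at 73.5 ± 0.854 CPM (a gene's reads relative to all counted reads of its library, scaled between libraries by TMM) in Control, 29.1 ± 1.28 CPM in uninduced and 201 ± 3.37 CPM in induced libraries (mean ± SD, n = 2 each, as for every ± value that follows). The uninduced level was 0.396 of that in Control, and the induced level was 2.73 times that in Control. Counts per gene do not show the source of the reads in uninduced libraries, such as exons left in place or cells that kept the gene. Of the markers of the sorted stage, Kit ranged from 372 to 631 CPM and Cd44 from 196 to 390.2 CPM, while Il2ra, which encodes CD25 and marks the next stage, ranged from 0.522 to 38.5 CPM. The list of 7 markers of the stage, and its median, include Il2ra as a gene that is low in it. Of these 7, 2 fell and none rose in uninduced against Control libraries (median log2 fold change -0.89), beside 5.42% of all genes called. They were Cd44 (-0.89, adjusted p = 0.0188) and Ptprc, the leukocyte surface gene CD45 (-1.16, adjusted p = 0.00956). Of the others, Flt3 (-1.75, from 128 ± 56.3 to 38.4 ± 25.1 CPM, adjusted p = 0.0525), Cd34 (-0.84) and Il2ra (-0.92) had fitted values below 0. Those of Cd24a (0.52) and Kit (0.21) were above it. The calls of Cd44 and Ptprc were lost with only the 4 libraries compared, and that of Cd44 also without Control replicate 1 or induced replicate 1. RBPJ uninduced replicate 2 stood apart in genes of other lineages: 9 B-lineage markers summed to 819 CPM there, against 32.3 CPM in uninduced replicate 1 and 7.16 to 44.7 CPM in the Control and induced libraries. Control replicate 2 stood apart in 10 later thymocyte markers, at 742 CPM against 22.1 to 144 CPM in all other libraries. It also had reads in 30343 genes from only 5311391 counts, against 18560 to 24025 genes in the other libraries. All 5 factors stood lower in Control replicate 2 than in Control replicate 1. The part of these traits in the comparisons with Control was not tested. Adjusted p-values are Benjamini-Hochberg values of edgeR's quasi-likelihood test over all 18174 genes, with a threshold of 0.05.

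All 5 factors were well expressed in every library, and none passed the test in any of the 3 comparisons, where 5.42% (uninduced against Control), 1.96% (induced against uninduced) and 0.187% (induced against Control) of all genes did. Every one stood lower in uninduced than in Control libraries and higher in induced than in uninduced libraries by its fitted fold change, but by no more than 0.84 and 0.88 on the log2 scale, the values of Mef2c. Of all genes tested, 51% had a fitted value below 0 in the first of these comparisons and 48.5% one above 0 in the second. In the induced libraries all 5 stood within 0.23 log2 units of Control, 4 of them above it, where 48.5% of all genes were above. Summed over the 5 genes, the level was 998 and 807 CPM in Control, 625 and 588 CPM in uninduced and 1012 and 954 CPM in induced replicates 1 and 2. In these bulk libraries, fewer cells that express a gene and less of its RNA per cell cannot be told apart.

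**Figure D1:**
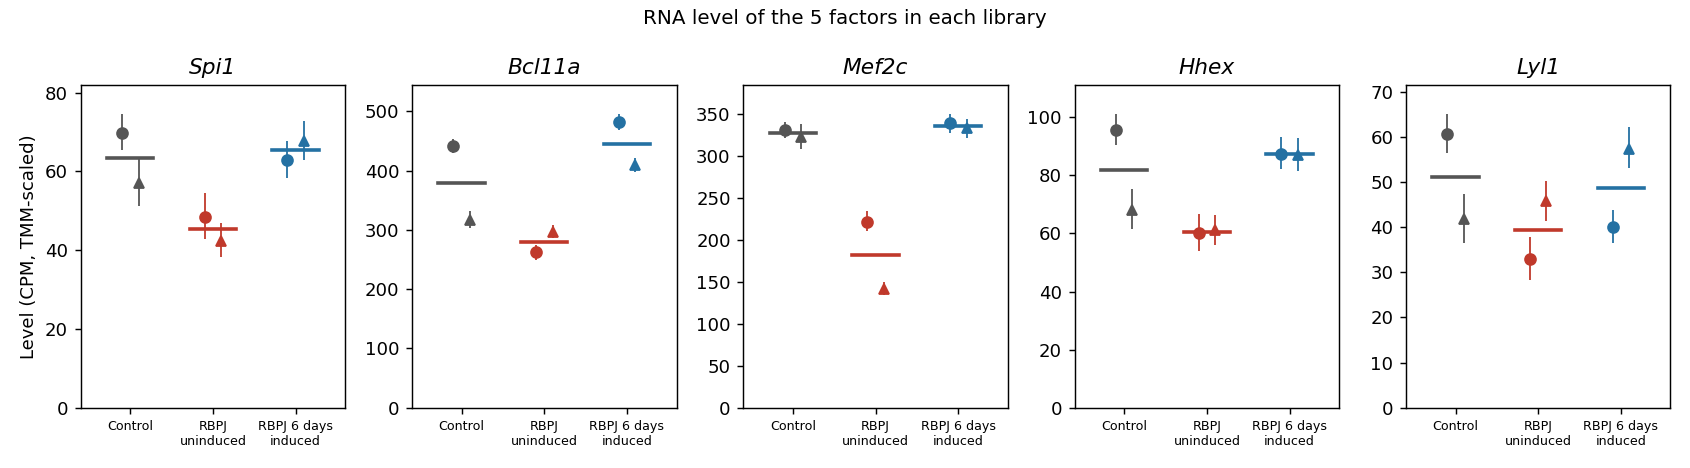
Level of each factor in every library, in TMM-scaled CPM on a linear axis from 0, for Control (grey), RBPJ uninduced (red) and RBPJ 6 days induced (blue); circles are replicate 1 and triangles replicate 2, horizontal bars are group means and vertical bars are exact Poisson 95% intervals of the counts alone. Both uninduced libraries lie lowest for Spi1, Bcl11a, Mef2c and Hhex, and the groups overlap for Lyl1.

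Spi1 (ENSMUSG00000002111, mm10 chromosome 2, 91082390 to 91115756, plus strand) encodes PU.1. Control replicates 1 and 2 had 69.8 and 57.1 CPM, the uninduced ones 48.3 and 42.4 CPM and the induced ones 63.0 and 67.8 CPM. Both uninduced libraries were below all 4 others, and the Control and induced libraries overlapped. The log2 fold change was -0.49 in uninduced against Control libraries (SE 0.22, 95% interval -0.98 to 0.0052, adjusted p = 0.272). It was 0.53 in induced against uninduced libraries (SE 0.219, 0.04 to 1.02, adjusted p = 0.283) and 0.04 in induced against Control libraries (SE 0.217, -0.45 to 0.53, adjusted p = 1). The first interval runs from a decrease of almost 2-fold to no difference.

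Bcl11a (ENSMUSG00000000861, chromosome 11, 24078056 to 24174123, plus strand) encodes the zinc finger factor and had 1505 to 5793 reads per library. It stood at 441 and 317 CPM in Control, 262 and 297 CPM in uninduced and 482 and 409 CPM in induced libraries. The uninduced libraries were again lowest, but Control replicate 2 lay just above them, and the Control libraries differed from each other by far more than their counting intervals (429.8 to 453 and 303 to 332 CPM). Against Control the uninduced libraries gave a log2 fold change of -0.44 (SE 0.201, -0.89 to 0.01, adjusted p = 0.281), and the induced libraries stood 0.67 above the uninduced ones (SE 0.202, 0.22 to 1.13, adjusted p = 0.141). Induced against Control libraries gave 0.23 (-0.22 to 0.68, adjusted p = 1). Genes that overlap Bcl11a on the other strand, Gm12064 and 4930538E20Rik, held at most 15 reads in a library.

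Mef2c (ENSMUSG00000005583, chromosome 13, 83504034 to 83667080, plus strand) had the largest fitted difference of the 5 in both comparisons with the uninduced libraries. Control libraries had 331 and 323 CPM and induced libraries 339 and 333 CPM, close to each other. In the uninduced libraries it stood at 222 and 142 CPM, both well below the other 4 and different from each other beyond their counting intervals (210.3 to 235 and 134 to 150.1 CPM). The log2 fold change against Control was -0.84 (SE 0.218, -1.33 to -0.35, unadjusted p = 0.00348, adjusted p = 0.057 by edgeR's quasi-likelihood test), and against the uninduced libraries the induced ones stood at 0.88 (SE 0.218, 0.39 to 1.37, unadjusted p = 0.00262, adjusted p = 0.0821). Induced and Control libraries differed by 0.04 (-0.44 to 0.52, adjusted p = 1).

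Whether Mef2c was called depended on the processing, and its fitted values depended on the libraries. DESeq2 called it in both comparisons, at -0.90 (adjusted p = 0.00275) and 0.87 (adjusted p = 0.00591), as did edgeR with no filter on low counts (adjusted p = 0.0172 and 0.0111), which called 4.31% and 2.77% of all genes. Without uninduced replicate 1 its fitted values in these comparisons were -1.25 and 1.30, and without uninduced replicate 2 they were -0.57 and 0.61. Without induced replicate 2 the value in uninduced against Control was -0.92. Uninduced replicate 2, the library with the lower Mef2c level, is also the one with 819 CPM of B-lineage markers and with 16.5% of its counts in mitochondrial ribosomal RNA, against 9.26% to 12.4% in the others. The part of these differences in the level of Mef2c was not tested.

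**Figure D2:**
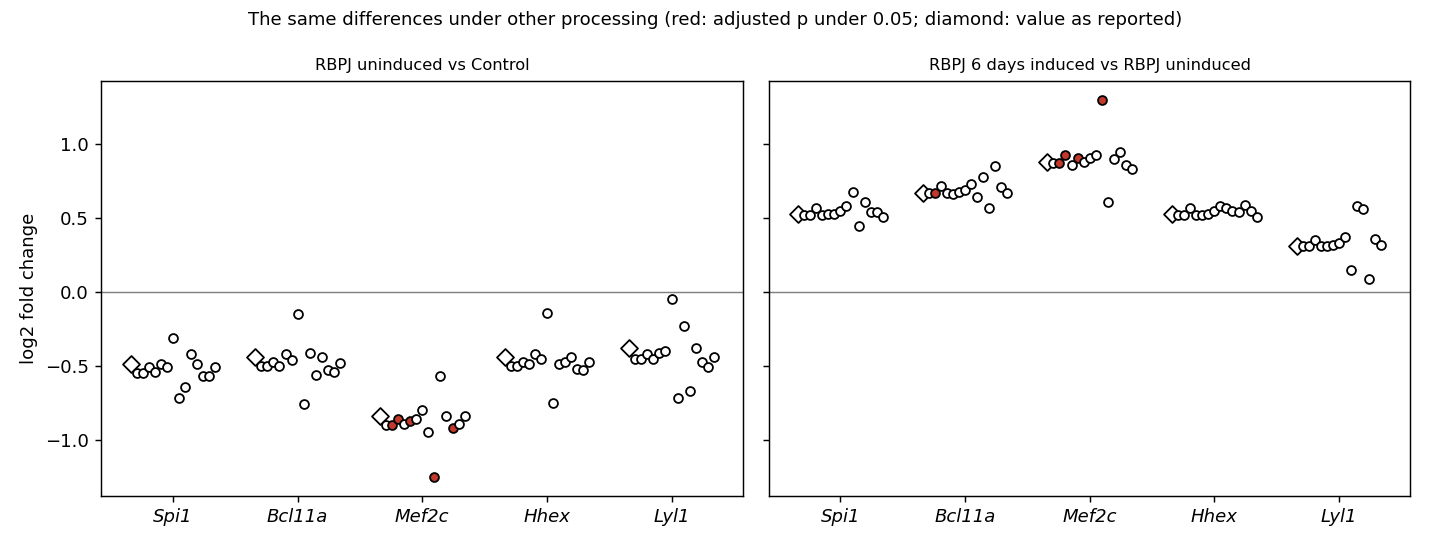
Fitted log2 fold change of each factor in RBPJ uninduced against Control and in RBPJ 6 days induced against RBPJ uninduced, as reported (diamond) and under 14 alternatives (circles: other tools, scalings, filters, the replicate block and each library left out); red marks an adjusted p under 0.05. Every value keeps its side of 0, from -1.25 to -0.05 in the first comparison and from 0.09 to 1.30 in the second, and red appears for Mef2c in both and for Bcl11a under DESeq2 in the second.

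Hhex (ENSMUSG00000024986, chromosome 19, 37434810 to 37440731, plus strand) stood at 95.7 and 68.1 CPM in Control, 60.2 and 61.1 CPM in uninduced and 87.5 and 87.0 CPM in induced libraries. The uninduced and induced pairs were tight and apart from each other, while Control spanned 68.1 to 95.7 CPM and held both the lowest and the highest of the 4 libraries with RBPJ. The log2 fold change was -0.44 in uninduced against Control (SE 0.22, -0.93 to 0.06, adjusted p = 0.334), 0.53 in induced against uninduced (SE 0.22, 0.03 to 1.02, adjusted p = 0.289) and 0.09 in induced against Control libraries (-0.40 to 0.58, adjusted p = 1). Without Control replicate 1, the library with the higher Hhex level, the first of these was -0.14 (adjusted p = 0.876), and without Control replicate 2 it was -0.75 (adjusted p = 0.177).

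Lyl1 (ENSMUSG00000034041, chromosome 8, 84701457 to 84704715, plus strand) had 189 to 796 reads per library and was the factor whose groups overlapped in all 3 comparisons. It stood at 60.6 and 41.7 CPM in Control, 32.9 and 45.7 CPM in uninduced and 40.0 and 57.4 CPM in induced libraries. Each pair of replicates differed by more than counting error, and uninduced replicate 2 lay above Control replicate 2. The log2 fold change was -0.38 in uninduced against Control (SE 0.299, -1.06 to 0.29, adjusted p = 0.578), 0.31 in induced against uninduced (SE 0.298, -0.36 to 0.98, adjusted p = 0.695) and -0.08 in induced against Control libraries (-0.74 to 0.59, adjusted p = 1). Lyl1 lies inside Nfix, a gene on the opposite strand, but the annotated exons of the pair share 4 bases (chromosome 8, 84704712 to 84704715). Nfix stood at 64.9 to 71.7 CPM in Control and at 85.0 to 93.4 CPM in the other 4 libraries, and the sources used here do not give the strand setting of the read counting.

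Beside the 0 calls by edgeR's quasi-likelihood test stand those by weaker rules. At an unadjusted p under 0.05 the 5 factors gave 1 lower factor (Mef2c) in uninduced against Control libraries, where 8.79% of all genes were lower by that rule. They gave 4 higher factors (all but Lyl1) in induced against uninduced libraries, where 8.51% of all genes were, and none in induced against Control, where 5.17% of all genes passed in either direction. DESeq2 called 1, 2 and 0 of the 5, Mef2c and, beside it, Bcl11a in induced against uninduced libraries (0.67, adjusted p = 0.011), with 12.4%, 9.35% and 1.77% of all genes called by it.

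The groups did not overlap for 4 factors, all lower, in uninduced against Control libraries, where 22.2% of all genes showed that pattern. The same 4 were higher without overlap in induced against uninduced libraries (24.8% of all genes), and 1, Mef2c, was higher without overlap in induced against Control (20.8% of all genes). The median log2 fold change of the 5 was -0.44, 0.53 and 0.04 in the 3 comparisons, beside -0.02, -0.03 and -0.02 over all genes tested. The median absolute log2 fold change of the 5 was 0.44, 0.53 and 0.08, and that of all genes 0.60, 0.57 and 0.37. The 5 had an average log2 CPM of 5.54 to 8.52, but the genes tested reached down to low counts. There fitted changes spread more widely: Hoxa10, at -0.61, had an SE of 3.01 in uninduced against Control. Genes of like level were not compared. The 3 comparisons share libraries, so a high or low pair in the uninduced group enters the first and the second with opposite sign.

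**Figure D3:**
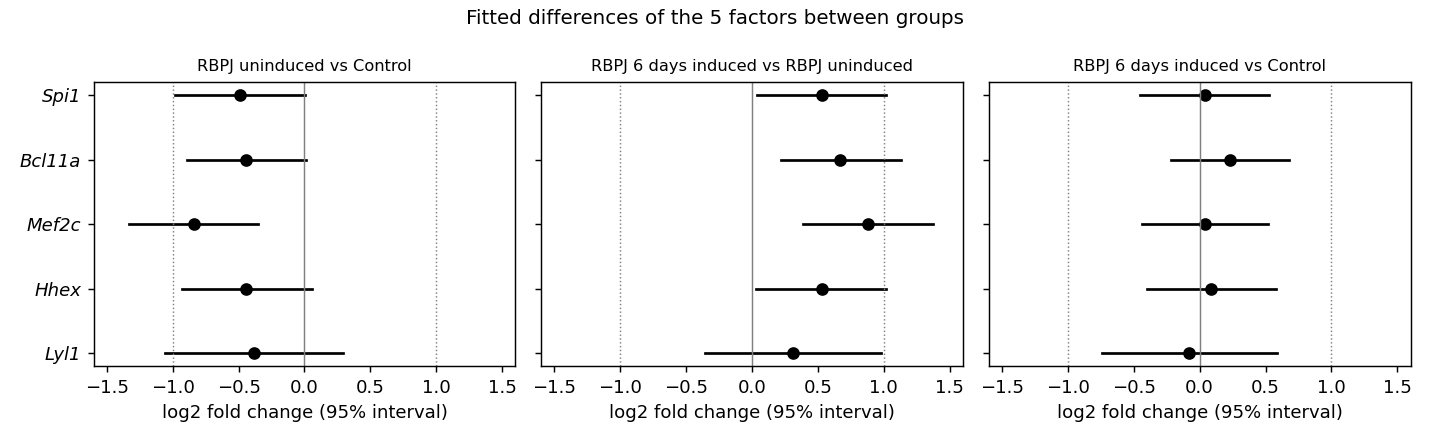
Fitted log2 fold change (point) and 95% interval (line) of each factor in the 3 comparisons, with dotted lines at 2-fold in either direction. In RBPJ 6 days induced against Control all 5 intervals lie between the dotted lines and include 0; in RBPJ uninduced against Control the intervals of Mef2c and Lyl1 reach past 2-fold lower.

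The width of the intervals, which borrows information on the spread from all genes, sets what these libraries could show. In induced against Control libraries the 95% intervals of all 5 factors lay within 2-fold in either direction, which held for 29.8% of all genes. In uninduced against Control libraries this was so for Spi1, Bcl11a and Hhex (20.1% of all genes), and in induced against uninduced libraries for Lyl1 alone (21.7% of all genes). These shares include genes with few counts, whose intervals are wider. No interval reached above 0.29 on the log2 scale in uninduced against Control libraries, that of Lyl1, so for none of the 5 did the interval include a 2-fold increase without RBPJ.

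Per kilobase of annotated exon, the order of the factors in Control was Bcl11a (28.8 ± 6.65 CPM per kb), Lyl1 (28.4 ± 7.41), Spi1 (23.6 ± 3.33), Mef2c (20.8 ± 0.354) and Hhex (16.2 ± 3.86). Bcl11a and Lyl1 overlapped in every group, and the first 3 could not be put in order beyond their spread in Control. In uninduced libraries the order was Lyl1 (21.8 ± 5.04), Bcl11a (21.2 ± 1.89), Spi1 (16.8 ± 1.57), Hhex (12 ± 0.128) and Mef2c (11.6 ± 3.61), with the last pair overlapping. In induced libraries it was again that of Control, with Bcl11a at 33.8 ± 3.92, the overlapping pair Lyl1 and Spi1 at 27.1 ± 6.83 and 24.3 ± 1.28, Mef2c at 21.4 ± 0.28 and Hhex at 17.3 ± 0.0688 CPM per kb. The lengths sum all annotated exons, 1800 bases for Lyl1 and 15715 for Mef2c, so a gene with many exons that these cells do not use appears too low on this scale.

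A pair of stretches just upstream of starts in a RefSeq promoter table are shown because RBPJ is the factor that was removed and returned. Those of Mef2c and Bcl11a were picked for the largest fitted increases after its return, although neither increase passed edgeR's quasi-likelihood test. For Bcl11a the RefSeq start differs from the start of the gene given above (24078056), and its stretch lies inside the gene. The stretches come from the table for GRCm38.p6, the build also called mm10, which held 4 of the 5 factors. Each was searched on both strands, over 250 bases before the start, for TGGGAA, the core of the RBPJ binding motif, and GAGGAA, a core of the PU.1 motif; capitals mark the matches, and bases inside annotated exons are left off.
Bcl11a, chr11:24080445-24080669, plus strand: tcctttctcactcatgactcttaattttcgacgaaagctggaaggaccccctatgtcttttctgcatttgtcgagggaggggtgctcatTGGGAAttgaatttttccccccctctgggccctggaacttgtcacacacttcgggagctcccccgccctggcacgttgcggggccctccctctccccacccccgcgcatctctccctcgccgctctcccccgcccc
Mef2c, chr13:83503784-83504033, plus strand: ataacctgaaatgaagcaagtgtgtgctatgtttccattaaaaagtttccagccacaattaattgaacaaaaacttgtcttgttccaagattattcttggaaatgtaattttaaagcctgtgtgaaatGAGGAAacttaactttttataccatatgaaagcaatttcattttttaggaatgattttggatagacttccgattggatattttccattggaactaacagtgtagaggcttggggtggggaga
TGGGAA was found in the window of Bcl11a and in none of those of Mef2c (3 windows), Hhex or Lyl1, beside 21.6% of 32851 promoter windows of the same length. GAGGAA was found in 2 of the 3 windows of Mef2c and in that of Lyl1, beside 23.3% of windows. The E-box CANNTG, the kind of site that LYL1 binds with its E protein partners, was found in 66.2% of windows and in at least 1 window of Bcl11a, Mef2c and Lyl1. A match describes these letters only, and its absence says only that they are not in the window.

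Close relatives of the 5 were measured as well. Of 8 listed relatives 7 could be tested, and in uninduced against Control libraries Tal1 rose and Mef2a fell, beside 5.42% of all genes called. Tal1, the nearest relative of Lyl1 and a member of the blood stem cell complex, stood at 12.5 and 13.6 CPM in Control, 70.9 and 88.3 CPM in uninduced and 36.3 and 47.5 CPM in induced libraries (2.61 in uninduced against Control, SE 0.268, adjusted p = 0.00133). Mef2a, a relative of Mef2c, went from 121 ± 21.7 to 65.9 ± 0.299 CPM (-0.88, SE 0.205, adjusted p = 0.0409), a call lost in 6 of 14 alternatives, among them without either Control library, without induced replicate 1 and with scaling by library totals. Spib, the nearest relative of Spi1, was near 0 except in uninduced replicate 2, at 82.1 CPM, the library with the B-lineage markers. Bcl11b, the T-lineage relative of Bcl11a, was at 131 CPM in Control replicate 2 and at 5.10 to 12.2 CPM in the other 5 libraries.

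Ratios of levels per kilobase within a library put the factors beside these genes and beside T-lineage factors. The ratio of Lyl1 to Tal1 was 11.8 and 7.46 in Control, 1.13 and 1.26 in uninduced and 2.68 and 2.94 in induced libraries, so the 3 groups were apart. The ratio of Spi1 to Tcf7, which encodes the T-lineage factor TCF1, was 0.189 and 0.116 in Control, 3.61 and 1.5 in uninduced and 0.35 and 0.31 in induced libraries. PU.1 RNA thus exceeded TCF1 RNA per kilobase in both uninduced libraries and in no other. The ratio of Spi1 to Gata3, another T-lineage factor, was 2.29 and 2.59 in Control, 31.6 and 9.51 in uninduced and 2.54 and 2.69 in induced libraries. These 3 ratios moved mainly by their denominators. From Control to uninduced libraries mean levels went from 420.1 to 20.2 CPM for Tcf7, 38.8 to 4.42 CPM for Gata3 and 13.1 to 79.6 CPM for Tal1. Those of Spi1 went from 63.5 to 45.3 CPM and those of Lyl1 from 51.2 to 39.3 CPM. With 2 libraries against 2, an exact permutation test of such a ratio cannot give a p below 0.333, so these are descriptions.

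**Figure D4:**
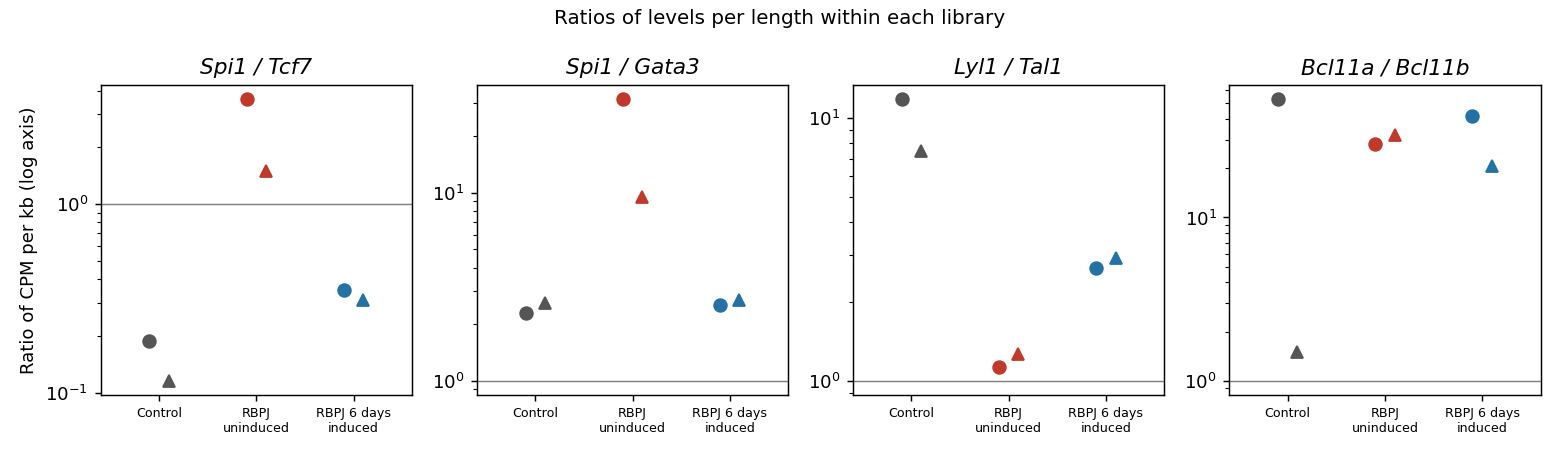
Ratio of levels in CPM per kilobase of exon within each library, on log axes, for Spi1 to Tcf7, Spi1 to Gata3, Lyl1 to Tal1 and Bcl11a to Bcl11b; circles are replicate 1, triangles replicate 2, and the grey line marks a ratio of 1. The Spi1 to Tcf7 ratio is above 1 in the RBPJ uninduced libraries (3.61 and 1.5), and the Bcl11a to Bcl11b ratio of Control replicate 2 (1.49) is far from all the others.

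T-lineage factors, which help to turn the progenitor programme off, differed between the groups. Of 11 listed, 6 fell and none rose in uninduced against Control libraries (median log2 fold change -3.09, beside 5.42% of all genes called). In induced against uninduced libraries 6 rose and none fell (median 0.98, beside 1.96% of all genes called). Notch1 went from 853 ± 100.4 to 83.2 ± 20.5 CPM (adjusted p = 0.000186), Tox from 146 ± 24.7 to 7.20 ± 2.61 CPM (adjusted p = 0.000273) and Tcf7 from 420.1 ± 84.1 to 20.2 ± 10.2 CPM (adjusted p = 0.000387). All 3 rose after induction, to 502 ± 25.6, 89.3 ± 9.15 and 194 ± 26.5 CPM. In the uninduced group, where these 3 T-lineage genes were lowest, the fitted values of the 5 progenitor factors were also lower than in Control, though no factor passed the test. Whether the T-lineage genes act on the 5 factors in these cells was not tested.

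The other stem and progenitor factors that T commitment switches off did not share 1 direction. Of 14 tested, 4 rose and 1 fell in uninduced against Control libraries (median 0.53, beside 5.42% of all genes called). Gata2, a factor of stem, progenitor and mast cells, went from 13.1 ± 5.49 to 236 ± 65.8 CPM (4.21, adjusted p = 0.000387), and Lmo2, the adaptor that joins LYL1 or TAL1 to GATA factors, from 55.5 ± 4.31 to 244 ± 57.8 CPM (2.14, adjusted p = 0.00133). After induction 1 of the 14 rose against uninduced, where 1.96% of all genes were called. It was Mycn, a transcription factor of the MYC family, from 12.6 ± 3.04 to 103 ± 6.59 CPM (3.03, adjusted p = 0.00517). In induced against Control libraries Gata2 and Lmo2 were higher (3.71 and 1.54, adjusted p = 0.00309 and 0.0288), beside 0.187% of all genes called. The call of Lmo2 was lost in 6 of 14 alternatives, among them without either Control library and with scaling by library totals. Without uninduced replicate 1 the median of this list in uninduced against Control was -0.26. The number of its calls varied with the library left out, and so did that of all genes.

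**Figure D5:**
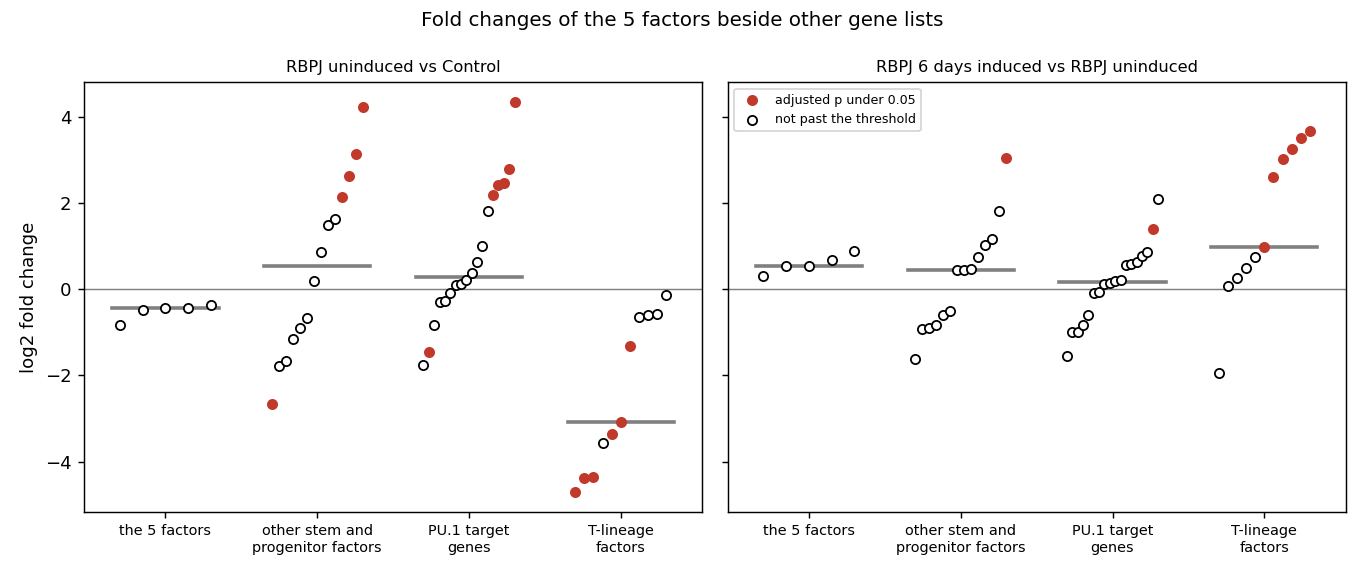
Log2 fold change of each tested gene, ordered within its list, for the 5 factors, the other stem and progenitor factors, the PU.1 target genes and the T-lineage factors; filled red points have an adjusted p under 0.05, open points do not, and grey bars are list medians. The 5 factors lie between -0.84 and -0.38 in RBPJ uninduced against Control, and the other lists spread to both sides or, for T-lineage factors, down to -4.71.

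Of 20 partners of the 5 factors tested, 2 rose and 1 fell in uninduced against Control libraries (median 0.09), where 5.42% of all genes passed in either direction. None passed in induced against uninduced and 1 was higher in induced against Control, where 1.96% and 0.187% of all genes passed. The risers were Lmo2 and Irf8, a partner of PU.1 on composite sites, from 13.4 ± 2.87 to 54.9 ± 22.9 CPM (2.03, adjusted p = 0.0106), a call lost without Control replicate 2 and with only the 4 libraries compared. Tle3, a Groucho-family corepressor of the kind that HHEX recruits, fell from 366 ± 5.07 to 149 ± 28.5 CPM (-1.30, adjusted p = 0.0055). The number of calls in this list was higher without uninduced replicate 1, where more of all genes were also called.

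Genes known to depend on PU.1 went both ways although Spi1 itself passed no test. Of 18 tested, 5 rose and 1 fell in uninduced against Control libraries (median 0.29, beside 5.42% of all genes called), and 1 rose in induced against uninduced libraries (beside 1.96%). Fcgr2b, an inhibitory Fc receptor, went from 7.01 ± 2.15 to 39.4 ± 4.51 CPM (2.47, adjusted p = 0.00823), Csf3r, the receptor for the granulocyte growth factor, from 9.9 ± 1.5 to 53.6 ± 28.4 CPM (2.42, adjusted p = 0.0114) and Fcgr3 from 3.31 ± 1.68 to 23.5 ± 5.55 CPM (2.78, adjusted p = 0.0144). Without Control replicate 2 these 3 calls were lost. With only the 4 libraries compared, the list had 1 higher and 0 lower members, where 219 of 15435 genes were called. Tyrobp, the signalling adaptor DAP12, stood at 40.2 ± 4.83 CPM in Control, 14.6 ± 0.766 CPM in uninduced and 38.1 ± 1.70 CPM in induced libraries. It fell without RBPJ (-1.47, adjusted p = 0.0158) and rose after induction (1.39, adjusted p = 0.0357), but neither call held throughout. The first was lost with only the 4 libraries compared and without Control replicate 1, and the second with only the 4 libraries compared, without either induced library and with scaling by library totals.

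Cells of other lineages also express these factors, and their markers differed between the groups. Spi1, Mef2c and Lyl1 are known in myeloid precursors as well, and Spi1, Bcl11a, Mef2c and Hhex in B-lineage cells. The calls below are those in uninduced against Control libraries, where 5.42% of all genes were called. Of 8 mast cell and basophil markers, 7 were tested and all 7 rose in uninduced against Control libraries, while Fcer1a, at 4.35 CPM in uninduced replicate 1 and 0 to 0.669 CPM elsewhere, was not tested. The sum of the list was 69.9 to 84.7 CPM in Control, 678 to 1030 CPM in uninduced and 344 to 389.5 CPM in induced libraries. Of 10 granulocyte and monocyte precursor markers 6 rose (476 to 537, 3329 to 4385 and 708 to 1588 CPM), and S100a8 and S100a9 did not pass the low-count filter. S100a8 and S100a9 stood at 14.5 and 54.4 CPM in uninduced replicate 2, the library that also held the B-lineage markers, and at 0 to 0.531 CPM in the other 5. Of 7 erythroid markers 4 rose (0.99 to 21.1, 191 to 556 and 86.6 to 149 CPM). The 8 macrophage markers, 6 of them tested, with the complement genes C1qa and C1qb near 0 (43.7 to 55.0, 37.6 to 38.9 and 52.4 to 76.0 CPM), had no call, nor had the 8 conventional dendritic cell markers (62.7 to 80.1, 24.7 to 395 and 107 to 129 CPM). Of 7 plasmacytoid dendritic cell markers (188 to 220.4, 144 to 275 and 268 to 273 CPM), Ccr9, a homing receptor that early thymic progenitors also carry, fell (-4.09, adjusted p = 0.00422). Of 9 B-lineage markers 1 rose, Cd79a, a call lost in 5 of 14 alternatives, among them without uninduced replicate 2 and without either Control library, and of 8 tested later thymocyte markers 1 fell, Trbc2. The part of these other cells in the levels of the 5 factors was not tested.

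The genes whose level followed each factor most closely over the 6 libraries were found by Pearson correlation of log2 CPM among 10282 other protein-coding genes with an average of at least 2 on the log2 CPM scale. They were Cdc42, Madd and Maco1 for Spi1 (r = 0.996, 0.995 and 0.995), Gosr2, Pla2g16 and Usp11 for Bcl11a (0.996, 0.985 and 0.984), Arhgef10, Abhd15 and Trp53i13 for Mef2c (0.998, 0.998 and 0.997), Nckap1l, Atrx and Apc for Hhex (0.995, 0.995 and 0.992) and Prss57, Trappc5 and Fam168b for Lyl1 (0.980, 0.977 and 0.976). Over only 6 libraries such values are common: 457 genes had an r over 0.9 with Spi1, 171 with Bcl11a, 488 with Mef2c, 224 with Hhex and 58 with Lyl1. Arhgef10 stood at 22.0 and 21.6 CPM in Control, 8.52 and 3.01 CPM in uninduced and 23.4 and 20.1 CPM in induced libraries. Its order of libraries within the uninduced group is that of Mef2c, which comes with its choice by likeness to Mef2c. Among the 5, the closest pair was Bcl11a with Hhex (r = 0.953) and the most distant Mef2c with Lyl1 (r = 0.302). These points share the libraries, their depth and their group differences, and no p is given.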

How the data were processed

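RNA of 6 libraries, 2 per group, was compared. The deposited files give raw counts of reads per Ensembl gene, 47729 genes each. The submitters' processing notes list HISAT2, StringTie, HTSeq and mm10 with no version or role, and neither strand setting nor annotation release is known here. Names, coordinates and exon lengths came from GENCODE M21 (47310 IDs matched). The test used edgeR 4.0.16 in R 4.3.3: filterByExpr by group (minimum count 10, minimum total 15), TMM scaling (factors 0.824 to 1.13), 1 quasi-likelihood fit of all 6 libraries with 3 residual degrees of freedom, and Benjamini-Hochberg adjustment over 18174 genes. The SE is the log2 fold change divided by the square root of F, and intervals are 95% intervals from it. They use edgeR's total degrees of freedom, which add those gained by sharing the spread across genes to the 3 residual ones. With the 3 residual ones alone and the same SE they would be wider. Replicates differed beyond sampling noise (chi-square per degree of freedom 19.7, 51.8 and 16.5 in Control, uninduced and induced), most in the uninduced group.

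The 5 factors and the gene lists were chosen with earlier results of these data known. Named from each other list were up to 3 genes past the threshold by smallest p, 2 where none passed, and for each factor the 3 genes of most similar profile; other genes were named after their values were seen. Alternatives were DESeq2 1.42.0, other scalings and filters, the 4 libraries compared, a replicate block and leaving out each library. Counting intervals cover counting error only.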

Additional observations from a re-analysis of the deposited data

How the results depend on the processing

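Of 70 recomputed fold changes per comparison (5 factors under 14 alternatives), 65 of uninduced against Control and 65 of induced against uninduced kept their direction and their side of the threshold, and 5 of each became calls. In the first these were Mef2c under DESeq2 (-0.90), with no low-count filter (-0.86), with the replicate block (-0.87), and without uninduced replicate 1 or induced replicate 2 (-0.92, adjusted p = 0.0476). In the second they were Mef2c under DESeq2 (0.87), with no low-count filter (0.93), with the replicate block (0.91) and without uninduced replicate 1, and Bcl11a under DESeq2 (0.67). The number of factors called was therefore 1 in the first comparison under DESeq2, no filter and the replicate block, and 2, 1 and 1 in the second; leaving out 1 library gave 0 to 1 in both and 0 to 0 in induced against Control.

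Leaving out each library in turn gave, for uninduced against Control, -0.72 to -0.31 for Spi1, -0.76 to -0.15 for Bcl11a, -1.25 to -0.57 for Mef2c, -0.75 to -0.14 for Hhex and -0.72 to -0.05 for Lyl1. For induced against uninduced it gave 0.45 to 0.68, 0.57 to 0.85, 0.61 to 1.30, 0.54 to 0.59 and 0.09 to 0.58 for these factors in the same order. For induced against Control it gave -0.13 to 0.24, -0.02 to 0.54, -0.02 to 0.11, -0.17 to 0.41 and -0.38 to 0.27, so the sign of all 5 turned without 1 library or another. There the signs of Spi1 and Mef2c also turned with other scalings: both were -0.03 with DESeq2 size factors, DESeq2, the stricter filter and library totals, and -0.01 with the 4 libraries compared and with totals free of mitochondrial ribosomal RNA. In all, 19 of the 70 values turned, with no call; the cause was not tested.

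Deviations of same-numbered libraries of different groups were nearly uncorrelated (r = -0.0407, 0.0253 and 0.0107 over 18174 genes). With only 2 libraries per group this cannot exclude a shared batch or a pairing. The replicate block gave 1147, 534 and 108 calls against 985, 357 and 34 without it. DESeq2 gave 1859, 1238 and 228 (60.3% of the second higher, against 79%), no filter 1540, 989 and 304, the 4 libraries compared 219, 71 and 177, and leaving out 1 library 445 to 2000, 171 to 1374 and 30 to 337. Scaling by library totals, chosen after seeing the data as was leaving out mitochondrial ribosomal RNA, moved the median of all genes from -0.02 to -0.13 in uninduced against Control. Lyl1, with 189 reads in uninduced replicate 1, had the widest intervals of the 5.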
